A study of Mus musculus with 16 samples.

Results

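The 9 genes described here serve renal gluconeogenesis, lactate uptake and ammoniagenesis, and they were chosen by name for these functions: Pck1, G6pc, Fbp1, Pcx, Slc37a4, Glud1, Slc38a3, Slc5a12 and Slc5a8. They are 9 of 34264 gene identifiers in the cortex table and 9 of 24722 gene symbols in the glomerular table, and all 9 were found in both. Diabetic renal cortex had 2.13 times the Pck1 RNA and 2.45 times the Slc38a3 RNA of control cortex, but 0.529 times the G6pc and 0.452 times the Slc5a12 RNA, while Fbp1, Pcx and Slc37a4 did not pass the test. In isolated glomeruli of control mice the levels were a small percentage of those in control cortex for all members but Glud1. The diabetic glomerular samples 1+4 and 3, highest in Pck1, G6pc and Fbp1, were also highest in summed proximal tubule markers. The part of these markers was not tested.

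RNA was sequenced from 16 libraries in 4 groups of 4, all from wild-type (WT) mice aged 24 weeks and all of batch 1: renal cortex of HFD/STZ-induced diabetic mice (HFD/STZ stands for feeding on high fat together with streptozotocin), renal cortex of control mice, isolated glomeruli of HFD/STZ-diabetic mice and isolated glomeruli of control mice. Streptozotocin destroys the pancreatic cells that make insulin. Diet, streptozotocin and the diabetic state cannot be told apart in this design, and the diet of the controls is not given in the labels. Whether numbered libraries are separate animals is not in the labels, and the p-values therefore measure no more than the spread of these samples, and that spread may be technical.

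The kidney, like the liver, releases glucose into the blood, and it makes it in the proximal tubule from lactate, glutamine and glycerol. Lactate is taken up from the filtrate with sodium by Slc5a12 and Slc5a8. Glutamine enters through the basolateral exchanger Slc38a3 and is deaminated in mitochondria, with glutamate dehydrogenase as a late step, which releases ammonium that carries acid into the urine. The carbon left is 2-oxoglutarate, which reaches glucose through oxaloacetate and phosphoenolpyruvate. In rodents, acidosis is known to raise renal Pck1 and Slc38a3, and insulin is known to repress Pck1 and G6pc in liver.

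Library totals ranged between 60628981 and 72352656 counts in diabetic cortex, 57473100 and 69947387 in control cortex, 36339294 and 40696477 in diabetic glomeruli, and 40001932 and 41876031 in control glomeruli. Levels are CPM (counts scaled to a library of 1000000) on library sizes scaled by TMM within a tissue unless FPKM is named. Diabetic glomerular libraries 1 and 4 were far closer to each other (chi-square per gene 6.69) than the other pairs of their group (66.2 to 97.9), and so were control glomerular libraries 3 and 4 (2.76, where their other pairs had 45.7 to 84.4). Both pairs were added up, each as 1 sample, which leaves 3 diabetic and 3 control glomerular samples. In cortex, control library 4 stood apart from the other controls (chi-square per gene 77.7 to 96.2, against 18.4 to 28.4 between the others). The labelled tissues were checked on marker genes: control glomeruli had more RNA than control cortex for 8 of 8 podocyte markers and less for 22 of 22 proximal tubule markers (edgeR's quasi-likelihood test).

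The promoters of the called members with an entry in the RefSeq table are shown because the members of the pathway moved apart in cortex. Each stretch is the 250 bases before the RefSeq start on GRCm38.p6, 5′ to 3′ on the plus strand, which is the strand of all 3 genes. The start lies inside the GENCODE gene model for Pck1 and G6pc. Capitals mark every match, on either strand, to 5 short motifs: TATAAA (the core promoter box), CGTCA (the core of the cAMP response element), CAAAGTCCA (for HNF4), GTAAACA (for forkhead factors) and TTGCNNAA (for C/EBP factors).
Pck1, chr2:173152823-173153072: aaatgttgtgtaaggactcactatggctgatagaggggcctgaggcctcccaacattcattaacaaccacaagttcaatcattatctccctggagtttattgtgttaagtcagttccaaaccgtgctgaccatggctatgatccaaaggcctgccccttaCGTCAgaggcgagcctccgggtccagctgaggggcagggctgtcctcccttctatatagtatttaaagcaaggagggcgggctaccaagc
G6pc, chr11:101367466-101367715: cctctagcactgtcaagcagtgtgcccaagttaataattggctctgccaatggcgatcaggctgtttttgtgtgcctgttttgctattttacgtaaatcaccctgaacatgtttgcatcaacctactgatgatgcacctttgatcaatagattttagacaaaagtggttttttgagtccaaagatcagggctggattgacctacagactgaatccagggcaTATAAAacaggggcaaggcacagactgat
Glud1, chr14:34310477-34310726: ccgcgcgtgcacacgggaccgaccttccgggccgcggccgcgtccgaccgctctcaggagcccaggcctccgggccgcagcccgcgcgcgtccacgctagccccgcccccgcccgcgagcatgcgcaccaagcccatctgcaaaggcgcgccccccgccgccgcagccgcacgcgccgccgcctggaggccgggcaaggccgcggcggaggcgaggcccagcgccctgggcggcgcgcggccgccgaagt
The capitals of Pck1 are CGTCA, 90 to 86 bases before the start. Those of G6pc are TATAAA, 29 to 24 bases before the start. Neither motif is particular to the called members. Each was found in 2 of the 7 members with an entry, and the other one was Slc37a4 both times, which was not called in cortex. Glud1 held none of the 5 motifs, and its stretch had 82.0% G and C, against 50.8% in Pck1 and 43.2% in G6pc. Among 32851 promoters of this length, 12.4% held TATAAA, 17.8% CGTCA, 0.384% CAAAGTCCA, 3.17% GTAAACA and 9.56% TTGCNNAA. These are matches of letters and say nothing of binding.

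The first comparison asks how HFD/STZ diabetes changed these genes in renal cortex. Of the 9 members, 3 rose (Pck1, Slc38a3 and Glud1), 2 fell (G6pc and Slc5a12) and 4 did not pass an adjusted p of 0.05 in edgeR's quasi-likelihood test. Of the 19228 genes tested in cortex, 10.8% were called higher and 9.29% lower. The median log2 fold change of the 9 members was -0.052, beside -0.0036 for all genes tested. The groups of 5 members did not overlap, where 24.9% of all genes tested had groups that did not overlap.

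**Figure D1:**
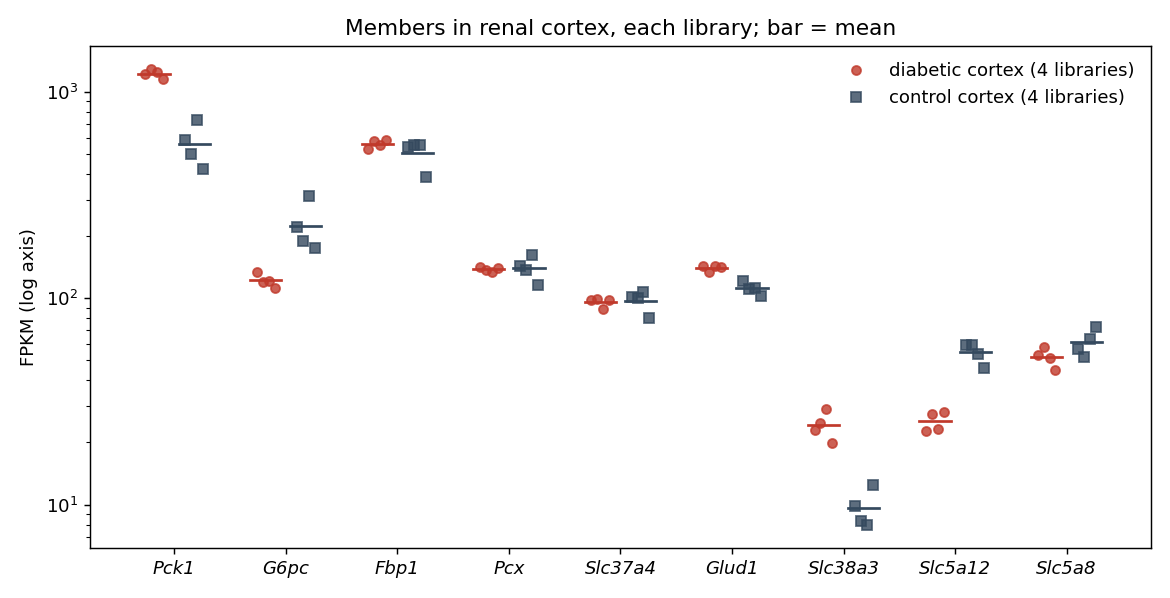
FPKM values (log axis) of the 9 members in each of the 4 diabetic and 4 control cortex libraries, with bars at the group means. Pck1 and Slc38a3 are higher in all 4 diabetic libraries, G6pc and Slc5a12 are lower in all 4, and the groups overlap for Fbp1, Pcx, Slc37a4 and Slc5a8.

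Pck1 encodes cytosolic phosphoenolpyruvate carboxykinase, which turns oxaloacetate into phosphoenolpyruvate and commits carbon to glucose. The gene lies at chr2:173153048-173159273 on the plus strand (GRCm38). It had 4618, 4650, 4380 and 4272 CPM in diabetic cortex, against 2200, 1970, 2757 and 1494 CPM in control cortex. Every diabetic library lay above every control library, and the 4 diabetic libraries were close together while the controls were spread. The log2 fold change was 1.09 ± 0.16 (SE, n = 4 against 4; edgeR's quasi-likelihood test, adjusted p = 0.00187), and it was 0.96 without control library 4.

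G6pc encodes the catalytic subunit of glucose-6-phosphatase, the last step of gluconeogenesis, and lies at chr11:101367561-101377903 on the plus strand. It had 361, 303, 301 and 293 CPM in diabetic cortex, against 587, 524, 830 and 436 CPM in control cortex. All diabetic libraries were below all controls. The log2 fold change was -0.92 ± 0.18 (SE, n = 4 against 4; edgeR's quasi-likelihood test, adjusted p = 0.00724) and -1.04 without control library 4. These enzymes thus differed in opposite directions in the same libraries, and among the controls library 3 was highest and library 4 lowest for both genes.

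The ratio of Pck1 to G6pc, taken on FPKM values because these are per length, was 9.01, 10.8, 10.2 and 10.2 in diabetic cortex, against 2.64, 2.65, 2.34 and 2.42 in control cortex. It averaged 10.1 ± 0.757 in diabetic and 2.51 ± 0.157 in control cortex (SD, n = 4 each). Each gene varied between control libraries, and their ratio varied little. An exact two-sided permutation test of the log ratio gave p = 0.0286, the smallest that 4 against 4 libraries allow (0.0381 adjusted over the 4 ratios computed here). Every diabetic library lay above every control for Pck1 and below for G6pc, so this p could take no other value. It restates the results of the single genes and is no further support. Leaving out each library in turn kept the log2 difference of 2.00 between 1.97 and 2.06.

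**Figure D2:**
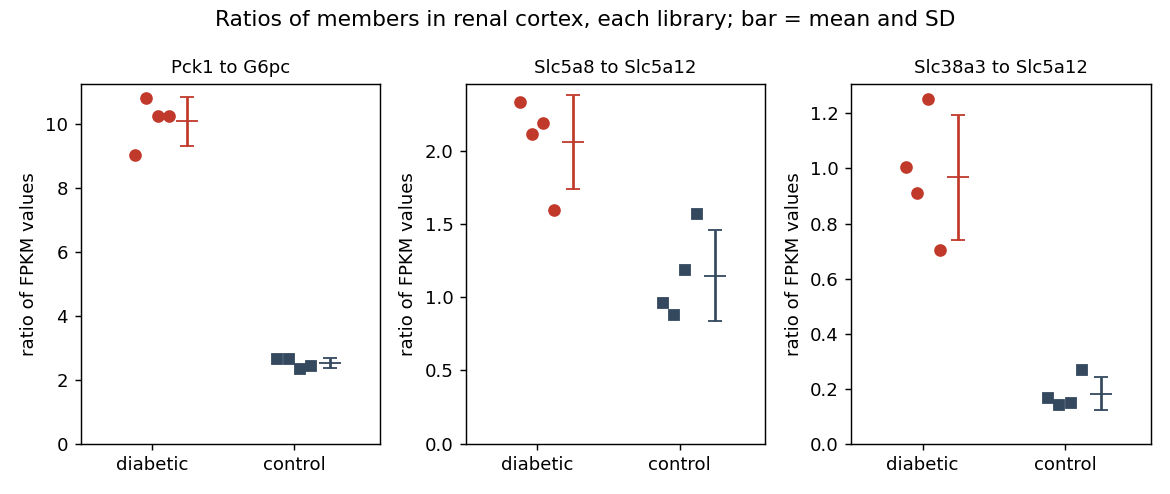
Ratios of FPKM values of 3 pairs of members in each cortex library (linear axes from 0), with means and SDs, diabetic left and control right. The ratio of Pck1 to G6pc lies between 9.01 and 10.8 in diabetic libraries and between 2.34 and 2.65 in controls, and the groups do not overlap in any of the 3 pairs.

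The other members of the glucose route were close to their control levels. Fbp1 (chr13:62864753-62888282, minus strand), fructose-1,6-bisphosphatase, had 998, 1035, 965 and 1072 CPM in diabetic cortex, against 1009, 1078, 1037 and 682 CPM in control cortex. Control library 4 was the low one, and the other 7 libraries overlapped. The log2 difference was 0.097 ± 0.13 (SE; edgeR's quasi-likelihood test, adjusted p = 0.654), and it was -0.033 without control library 4.
Pcx (chr19:4510472-4621752, plus strand), pyruvate carboxylase, makes oxaloacetate from pyruvate in mitochondria. It had 657 to 750 CPM in diabetic and 568 to 846 CPM in control cortex, with a log2 difference of -0.052 ± 0.11 (SE; edgeR's quasi-likelihood test, adjusted p = 0.796). Slc37a4 (chr9:44396852-44402968, plus strand) carries glucose 6-phosphate to the phosphatase inside the endoplasmic reticulum. Its range was 259 to 310 CPM in diabetic and 238 to 338 CPM in control cortex, with a log2 difference of -0.065 ± 0.11 (SE; edgeR's quasi-likelihood test, adjusted p = 0.729). Control library 4 was the lowest of the 8 for Fbp1, Pcx and Slc37a4. A miss of the threshold does not show that these levels were equal.

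The 2 members of the glutamine route both rose. Slc38a3 (chr9:107650634-107669530, minus strand), the glutamine transporter SNAT3, had 134, 138, 158 and 114 CPM in diabetic cortex, against 57.01, 50.8, 46.4 and 67.8 CPM in control cortex. The lowest diabetic library was above the highest control. The log2 fold change was 1.29 ± 0.13 (SE, n = 4 against 4; edgeR's quasi-likelihood test, adjusted p = 0.000450), the largest increase among the 9 members.
Glud1 (chr14:34310727-34345265, plus strand), the mitochondrial glutamate dehydrogenase, had 666, 594, 617 and 650 CPM in diabetic cortex, against 561, 538, 517 and 448 CPM in control cortex. The groups did not overlap, but the lowest diabetic and the highest control library were close. The log2 fold change was 0.29 ± 0.08 (SE, n = 4 against 4; edgeR's quasi-likelihood test, adjusted p = 0.0323). The call was lost without control library 2 or 3 and without each diabetic library in turn (adjusted p = 0.0527 to 0.0847). A processed pseudogene, Glud-ps, is annotated, and reads shared with it, which were not measured, could make the Glud1 values uncertain.

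Both lactate transporters were measured well above 0 in every cortex library, and 1 of them changed. Slc5a12 (chr2:110597298-110647779, plus strand), the low-affinity sodium-coupled monocarboxylate transporter of the early proximal tubule, had 103, 116, 97.4 and 124 CPM in diabetic cortex, against 265, 276, 241 and 194 CPM in control cortex. All diabetic libraries were below all controls. The log2 fold change was -1.14 ± 0.12 (SE, n = 4 against 4; edgeR's quasi-likelihood test, adjusted p = 0.000450).
Slc5a8 (chr10:88885992-88929515, plus strand), its high-affinity relative of later proximal segments, had 315, 323, 280 and 260 CPM in diabetic cortex, against 333, 318, 375 and 400 CPM in control cortex. The groups overlapped. The log2 difference was -0.27 ± 0.10 (SE; edgeR's quasi-likelihood test, adjusted p = 0.0715), and DESeq2 gave an adjusted p of 0.0357.

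On FPKM values, the ratio of Slc5a8 to Slc5a12 was 2.06 ± 0.323 in diabetic and 1.15 ± 0.311 in control cortex (SD, n = 4 each; exact permutation p = 0.0286, adjusted p = 0.0381). The lowest diabetic ratio, 1.596, and the highest control ratio, 1.57, were almost equal. Of these genes only Slc5a12 separated the groups. Their ratio restates its fall beside the smaller difference of Slc5a8 and is no further support. The ratio of Slc38a3 to Slc5a12 was 0.968 ± 0.228 in diabetic and 0.181 ± 0.0595 in control cortex (exact permutation p = 0.0286, adjusted p = 0.0381). A glutamine transporter that was less abundant per length than this lactate transporter in every control library was thus near its level in diabetic libraries. Slc38a3 and Slc5a12 each separated the groups, in opposite directions, so the p of their ratio was also fixed by the single genes. The ratio of cytosolic Pck1 to mitochondrial Pck2 was 500 ± 48.0 in diabetic and 348 ± 113 in control cortex (exact permutation p = 0.0571, adjusted p = 0.0571), and this did not pass the threshold.

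The order of the members by FPKM differed between the groups. In diabetic cortex Pck1 came first with 1225 ± 59.9 FPKM and Fbp1 second with 560 ± 25.5 FPKM (SD, n = 4), and their ranges did not overlap. Glud1 (141 ± 3.98 FPKM), Pcx (139 ± 3.35 FPKM) and G6pc (122 ± 9.33 FPKM) followed, with the ranges of neighbours overlapping. Then came Slc37a4 (95.6 ± 4.96 FPKM) and Slc5a8 (51.8 ± 5.31 FPKM), and last Slc5a12 (25.4 ± 2.77 FPKM) and Slc38a3 (24.2 ± 3.91 FPKM), which overlapped each other.
In control cortex the ranges of Pck1 (559 ± 132 FPKM) and Fbp1 (508 ± 80.6 FPKM) overlapped. G6pc came next with 224 ± 61.7 FPKM, above Pcx (140 ± 19.0 FPKM), Glud1 (112 ± 7.59 FPKM) and Slc37a4 (97.2 ± 11.7 FPKM), whose neighbours overlapped. Slc5a8 (61.3 ± 8.93 FPKM) and Slc5a12 (54.6 ± 6.20 FPKM) overlapped, and Slc38a3 was last with 9.65 ± 2.01 FPKM. G6pc thus ranked 5 by its mean in diabetic cortex and 3 in control cortex, which is a description only.

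Other cell types and the state of the tubule differed between the cortex groups. Of 22 proximal tubule markers, 1 rose (Slc13a1, named after its value was seen) and 9 fell, with a median log2 fold change of -0.32, and their summed level was 33809 to 44344 CPM in diabetic and 38216 to 56847 CPM in control cortex. Of 7 tubular injury markers 6 rose, summing to 1420 to 2653 CPM in diabetic and 866 to 1032 CPM in control cortex. Of 9 macrophage and myeloid markers 8 rose, summing to 523 to 807 CPM in diabetic and 212 to 376 CPM in control cortex. Of 5 red blood cell markers 5 fell (338 to 578 CPM in diabetic and 714 to 1294 CPM in control cortex), and of 6 lymphocyte markers 3 rose (4.59 to 8.52 CPM in diabetic and 2.15 to 2.61 CPM in control cortex). The 6 adipocyte markers summed to 105 CPM in control cortex library 3, which was also the control highest in Pck1 and G6pc. They summed to 0, 0.241 and 0.198 CPM in control libraries 1, 2 and 4, and to 0.312 to 3.94 CPM in diabetic cortex. The calls are by edgeR's quasi-likelihood test, and the part of all these markers in the changes of the members was not tested. Fewer cells of a type and less RNA per cell cannot be told apart in these bulk samples.

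Beside the members, 53 further genes of the same routes were listed in 4 groups by function. In cortex 5 of them rose, 12 fell and 36 did not pass edgeR's quasi-likelihood test, with a median log2 fold change of -0.032. Among all 19228 genes tested in cortex, 10.8% were higher and 9.29% lower. Of 13 further gluconeogenic and transamination enzymes 3 rose and 1 fell (median 0.050). Gpt, an alanine aminotransferase that makes pyruvate from alanine, had 36.2 ± 4.21 CPM in diabetic and 20.4 ± 3.90 CPM in control cortex (SD, n = 4 each; log2 fold change 0.83 ± 0.14, adjusted p = 0.00344). Gpt2, its mitochondrial relative, had 71.2 ± 10.6 CPM in diabetic and 46.9 ± 9.33 CPM in control cortex (log2 0.60, adjusted p = 0.0203), and Pck2, the mitochondrial carboxykinase, 20.6 ± 2.14 CPM in diabetic and 14.4 ± 2.55 CPM in control cortex (log2 0.52, adjusted p = 0.0184). Gk, glycerol kinase, which brings glycerol into the route, fell to 582 ± 73.0 CPM in diabetic cortex, against 791 ± 25.1 CPM in control cortex (log2 -0.44, adjusted p = 0.00899). Gpt and Gk kept their calls without each library in turn, Pck2 in 5 of 8 and Gpt2 in 4 of 8 of these fits (adjusted p up to 0.0587 and 0.0605 where a library was left out).

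Of 13 genes of lactate and pyruvate handling, 0 rose and 1 fell in cortex by edgeR's quasi-likelihood test (median -0.043; 2 higher and 2 lower at an unadjusted p under 0.05, and 2 called higher by DESeq2). The one that fell was Slc16a7, the monocarboxylate transporter MCT2, with 95.6 ± 17.2 CPM in diabetic and 172 ± 60.8 CPM in control cortex (log2 -0.84 ± 0.24, edgeR adjusted p = 0.0428). That call held in 2 of 8 fits that left out a library, without control library 3 or 4, and was lost with library totals, without the low-count filter and on both FPKM scales (adjusted p = 0.0613 to 0.104). The lactate dehydrogenases, the mitochondrial pyruvate carrier and the pyruvate dehydrogenase genes of the list did not pass the test.

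Of 12 genes of glutamine and ammonium handling, 1 rose and 5 fell in cortex (median -0.14). Rhcg, the ammonia channel of the distal nephron, had 90.1 ± 8.47 CPM in diabetic and 125 ± 7.89 CPM in control cortex (SD, n = 4 each; log2 -0.47, edgeR adjusted p = 0.00296). Slc9a3, the sodium-proton exchanger NHE3 of the proximal tubule, had 133 ± 10.8 CPM in diabetic and 173 ± 19.2 CPM in control cortex (log2 -0.38, adjusted p = 0.0144). Slc7a8, a basolateral neutral amino acid exchanger, fell by 0.75 on the log2 scale (adjusted p = 0.0172), and Glul, glutamine synthetase, which uses ammonium, fell by 0.46 (adjusted p = 0.0310). The list also held Rhbg, which fell by 0.42 (adjusted p = 0.0322), and Slc25a22, a mitochondrial glutamate carrier, which rose by 0.41 (adjusted p = 0.0414). Rhbg and Slc25a22 lie outside the naming rule and were named after their values were seen. Rhcg and Slc9a3 kept their calls without each library in turn, Slc7a8 in 6 of 8 and Glul, Rhbg and Slc25a22 in 2 of 8 of these fits. Of the 12 distal nephron and collecting duct markers, 1 rose and 4 fell in cortex.

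Of 15 regulators, 1 rose and 5 fell in cortex. Cebpb, a C/EBP transcription factor, had 78.3 ± 4.21 CPM in diabetic and 24.7 ± 10.5 CPM in control cortex (SD, n = 4 each; log2 1.66 ± 0.29, edgeR adjusted p = 0.00677). Nr3c1, the glucocorticoid receptor, fell to 59.9 ± 4.03 CPM in diabetic cortex, against 83.8 ± 10.3 CPM in control cortex (log2 -0.48, adjusted p = 0.00516). Creb1, the cAMP response factor, fell by 0.34 on the log2 scale (adjusted p = 0.0116), and Ppargc1a, a coactivator of gluconeogenic genes in liver, fell by 0.55 (adjusted p = 0.0120). Irs1 (log2 -0.63, adjusted p = 0.0143), an adaptor of the insulin receptor, and Hnf4a (log2 -0.39, adjusted p = 0.0173), a factor of proximal tubule and liver, also fell, and both were named after their values were seen. Leaving out each library in turn ended only the call of Hnf4a, without control library 1 or diabetic library 3 or 4, among these 6. On log2(FPKM + 1) and log2(FPKM + 0.1) Creb1 (limma adjusted p = 0.0758 and 0.0762) and Irs1 (adjusted p = 0.0610 and 0.0517) lost their calls. RNA levels of a factor say nothing of its activity.

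**Figure D3:**
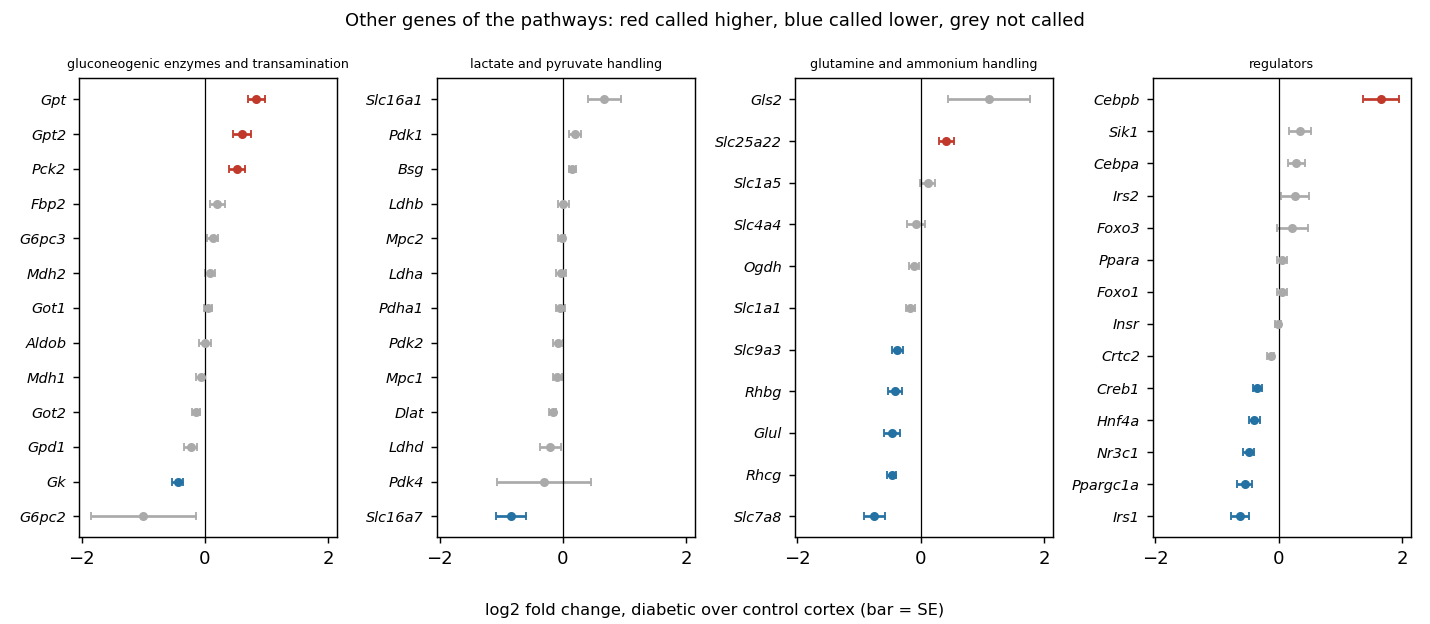
Log2 fold change of diabetic over control cortex with its SE for 51 of the 53 further genes in 4 panels by function, red for called higher, blue for called lower and grey for not called. Most points lie near 0, and Cebpb at 1.66 is the highest of the called genes.

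The genes whose pattern over the 8 cortex libraries was most like that of Pck1, by Pearson's r of log2 CPM among 12062 named genes, were Gfer (0.986), Nelfb (0.981), Lrp11 (0.980), Il34 (0.977) and Gpt (0.976). Among the members r was 0.890 for Glud1, 0.823 for Slc38a3, 0.549 for Fbp1, 0.225 for Pcx, 0.141 for Slc37a4, -0.627 for G6pc, -0.693 for Slc5a8 and -0.839 for Slc5a12. These values describe 8 libraries that share the difference between the groups. Gpt, which was also among the pathway genes that rose, was the only gene of the 4 pathway lists among these 5.

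The second comparison is between tissues. In control glomeruli all 9 members were lower than in control cortex (0 higher and 9 lower; edgeR's quasi-likelihood test in a model of the 4 groups), where 38.7% of 16298 joined genes were higher and 39.7% lower. The log2 difference ran from -1.15 ± 0.10 for Glud1 (SE, adjusted p = 1.12e-07) to -9.93 ± 1.08 for G6pc (adjusted p = 2.14e-06) among the members with counts in every sample. Slc37a4 (-4.55) and Pcx (-5.64) lay between Glud1 and the proximal tubule genes Slc5a12 (-8.01), Pck1 (-9.11), Fbp1 (-9.25) and Slc5a8 (-9.54). For Slc38a3 control glomeruli had counts of 0, 1, 5 and 2 in libraries 1 to 4, and a count of 0 in library 1 allows up to 3 counts, or 0.0738 CPM of its unscaled total, for counting error only. Its fitted difference of -10.31 depends on the prior count. The median of the 22 proximal tubule markers was -9.10. The tables of the tissues were made with different annotations and counting, so that part of a level difference may come from that.

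Per length, the order within control glomeruli was another one than in cortex. Glud1 was highest with 83.8 ± 6.09 FPKM (SD over 4 libraries, the near-identical ones kept apart), followed by Slc37a4 (5.15 ± 0.205 FPKM), Pcx (3.93 ± 0.242 FPKM) and Pck1 (1.66 ± 0.103 FPKM). In diabetic glomeruli Glud1 was again highest with 86.8 ± 3.67 FPKM, above Pck1 with 43.6 ± 33.9 FPKM, and from Pck1 down the ranges of all neighbours overlapped. Here too the near-identical libraries, 1 and 4, were kept apart. Pck1 had 71.3 and 71.1 FPKM in them, against 1.90 FPKM in library 2 and 30.1 FPKM in library 3. Glud1, an enzyme of many cell types, was thus far above the other 8 members in control glomeruli. On counts scaled jointly, Glud1 in control glomeruli was 50.1, 42.4 and 42.7% of its mean in control cortex, and Slc37a4 4.48, 4.16 and 4.17%.

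The third comparison asks how diabetes changed the members in glomeruli. Of the 9 members 8 had enough counts to be tested, and 4 of these were called higher (Pck1, G6pc, Fbp1 and Slc5a8) and 0 lower by edgeR's quasi-likelihood test. At an unadjusted p under 0.05 the counts were 5 higher and 0 lower, and DESeq2 called 5 higher and 0 lower. Among all 15238 glomerular genes in that test, 19.4% were higher and 18.2% lower. The median log2 fold change of the 8 was 3.15, beside 0.0096 for all genes. The groups did not overlap for 2 of the 8 (Slc5a8 and Glud1), where 54.2% of all genes tested had groups that did not overlap. A member that passed the filter on low counts could do so through its high samples alone, and these counts give no support beyond the values that follow.

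Pck1 had 173, 4.66 and 76.3 CPM in diabetic glomerular samples 1+4, 2 and 3, against 4.78, 4.89 and 4.45 CPM in control samples 1, 2 and 3+4. G6pc had 28.1, 0.753 and 12.3 CPM in diabetic and 0.430, 1.19 and 0.661 CPM in control glomeruli, and Fbp1 54.3, 1.99 and 23.5 CPM in diabetic and 1.96, 2.65 and 1.28 CPM in control glomeruli. In all 3 genes diabetic sample 1+4 was highest, sample 3 next and sample 2 within the control range. The log2 fold changes were 4.17 ± 1.12 for Pck1 (SE, n = 3 against 3; edgeR's quasi-likelihood test, adjusted p = 0.0272), 4.18 ± 1.18 for G6pc (adjusted p = 0.0321) and 3.78 ± 1.06 for Fbp1 (adjusted p = 0.0318).

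Slc5a8 had 9.82, 1.10 and 5.05 CPM in diabetic and 0.591, 0.503 and 0.636 CPM in control glomeruli, so that sample 2 was also above the controls (log2 3.20 ± 0.75, edgeR adjusted p = 0.0175). Slc5a12 had 21.7, 0.799 and 7.82 CPM in diabetic and 1.56, 1.06 and 0.941 CPM in control glomeruli (log2 3.11 ± 1.03, adjusted p = 0.0530). Slc38a3 was not tested, and its counts in diabetic libraries 1 to 4 were 211, 5, 117 and 181. The same order of samples held for both lactate transporters and for Slc38a3.
Pcx had 47.2, 10.5 and 29.8 CPM in diabetic and 18.1, 18.1 and 17.8 CPM in control glomeruli (log2 0.70 ± 0.47, adjusted p = 0.286). Slc37a4 had 23.9, 10.8 and 16.9 CPM in diabetic and 16.8, 16.1 and 15.4 CPM in control glomeruli (log2 0.10 ± 0.27, adjusted p = 0.806). Glud1 had 261, 241 and 262 CPM in diabetic and 319, 276 and 266 CPM in control glomeruli (log2 -0.17 ± 0.10, adjusted p = 0.210). Glud1 was the member least like the others, with diabetic samples close together and all just below the controls.

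**Figure D4:**
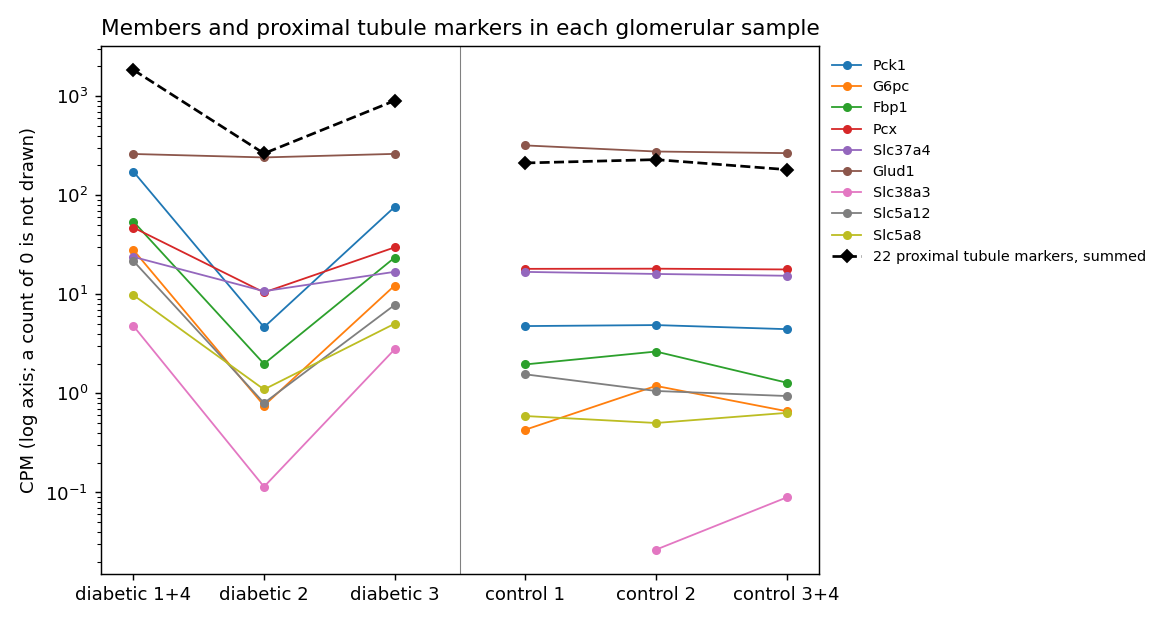
CPM (log axis) of the 9 members and the summed CPM of 22 proximal tubule markers in each glomerular sample, the 3 diabetic samples left and the 3 control samples right. All members but Glud1 follow the marker sum over the diabetic samples, with sample 2 lowest, and the control samples lie close together for all but the rarest members.

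The 22 proximal tubule markers, all detected in every glomerular sample, summed to 1842, 264 and 902 CPM in diabetic samples 1+4, 2 and 3, against 212, 229 and 182 CPM in control glomeruli. Of the 21 tested, 16 rose and 0 fell, with a median log2 fold change of 3.46. The 12 markers of distal nephron and collecting duct summed to 2196, 126 and 989 CPM in diabetic and 122, 102 and 102 CPM in control glomeruli. The tubular injury markers summed to 5864.5, 6382 and 5541.5 CPM in diabetic samples 1+4, 2 and 3, against 242 to 953 CPM in control glomeruli. Unlike the proximal and distal markers, the injury markers were thus highest in sample 2. The podocyte markers summed to 4460.5, 4050 and 2231 CPM in diabetic samples 1+4, 2 and 3, against 4900 to 6551 CPM in control glomeruli. The part of these in the values of the members was not tested. As a percentage of the mean of the same group's cortex, on joint scaling, the median member stood at 5.56, 0.296 and 3.18% in diabetic samples 1+4, 2 and 3, and the median proximal tubule marker at 4.67, 0.269 and 2.10%. Slc5a12 was at 16.3, 0.576 and 5.78% and Pck1 at 3.20, 0.0827 and 1.39% of diabetic cortex, while the markers ran from 0.444 to 13.9% in sample 1+4. These percentages also carry the changes in cortex. On joint scaling the mean of Slc5a12 was 140 CPM in diabetic and 309 CPM in control cortex. That of Pck1 was 5676 CPM in diabetic and 2671 CPM in control cortex.

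Sample 2, picked because its marker sum was the lowest of the diabetic samples, was also set alone against the 3 controls, which assumes that it varies as they do. Since it was picked on its values, the fit restates the levels above and is no independent support. Of the 8 members tested 0 were higher and 1, Pcx, lower by edgeR's quasi-likelihood test (0 higher and 2 lower at an unadjusted p under 0.05), where 8.56% of 15835 genes were higher and 5.92% lower. The log2 differences were 0.010 for Pck1, 0.014 for G6pc, 0.053 for Fbp1 and -0.76 for Pcx (adjusted p = 0.0380), with -0.56 for Slc37a4 (adjusted p = 0.0796) and 0.94 for Slc5a8 (adjusted p = 0.198). The SEs of Pck1, G6pc and Fbp1 were 0.24, 0.69 and 0.49. The count of 4 called members was 0 without any 1 of the 3 control samples, 1 without diabetic sample 1+4 or 3, and 7 without diabetic sample 2. Pcx, Slc5a12 and Slc38a3 were the ones added in that last fit. Slc38a3 was not tested with all samples, and there it could pass the low-count filter through its high diabetic samples alone. The counts are thus not over the same members. Without 1 control sample the log2 fold changes stayed at 4.12 to 4.19 for Pck1, 3.91 to 4.602 for G6pc, 3.52 to 4.05 for Fbp1 and 3.10 to 3.27 for Slc5a8, with adjusted p of 0.0520 to 0.111 for these 4, against log2 4.17, 4.18, 3.78 and 3.20 with all samples.

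**Figure D5:**
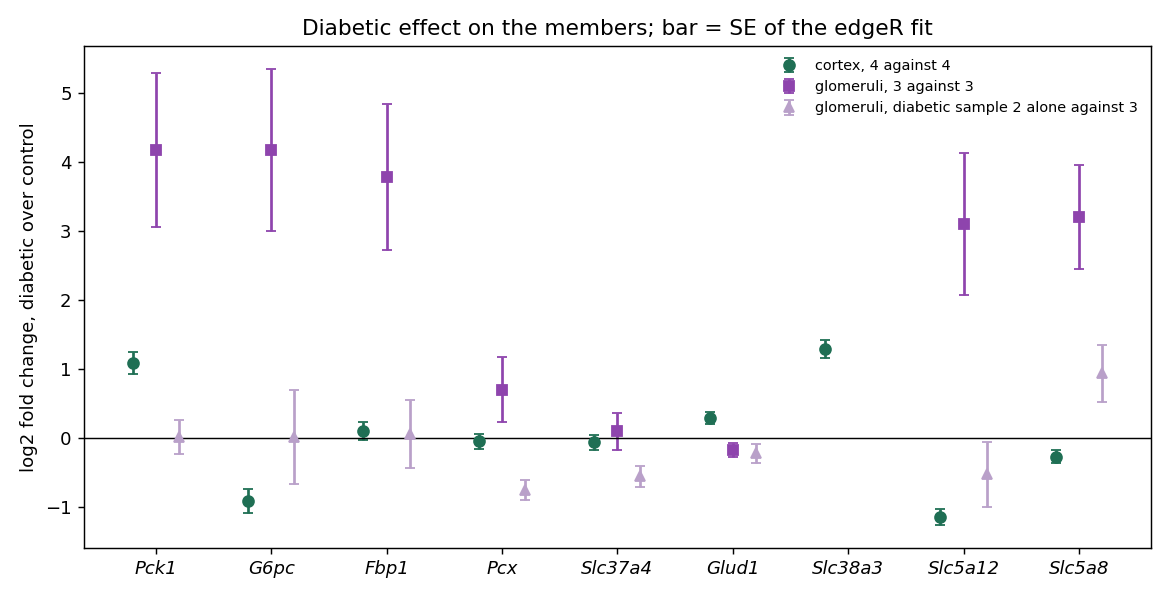
Log2 fold change with its SE of each member in cortex (circles), in glomeruli (squares) and with diabetic glomerular sample 2 alone (triangles), diabetic over control. Pck1, G6pc and Fbp1 lie near 4 in glomeruli and near 0 with sample 2 alone, and Slc38a3 has a value in cortex only.

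Of the 53 further pathway genes 51 were tested in glomeruli, and 22 rose and 6 fell. Among all 15238 genes tested there, 19.4% were higher and 18.2% lower. The 6 lower calls depend on the scaling. With DESeq2 size factors 6 were lower (22 higher). With library totals 0 were lower (30 higher), as on log2(FPKM + 1) (19 higher) and log2(FPKM + 0.1) (22 higher). Ldhb, a lactate dehydrogenase subunit, had 471, 362 and 232 CPM in diabetic and 23.6, 26.6 and 19.4 CPM in control glomeruli (log2 3.94, adjusted p = 0.000529). Sample 2 was higher than sample 3 for Ldhb, unlike for Pck1.
The sodium-bicarbonate cotransporter Slc4a4 had 91.7, 33.6 and 48.7 CPM in diabetic and 4.70, 4.44 and 5.95 CPM in control glomeruli (log2 3.52, adjusted p = 0.00140). Slc1a5, a glutamine transporter of many proliferating cells, had 57.5, 54.7 and 34.1 CPM in diabetic and 10.7, 16.7 and 11.4 CPM in control glomeruli (log2 1.92, adjusted p = 0.00240). Gpt2 (log2 1.20, adjusted p = 0.000693) and the lactate transporter Slc16a1 (log2 1.04, adjusted p = 0.00913) rose as well. With sample 2 alone, picked on its values, the log2 difference was 3.99 for Ldhb, 2.76 for Slc4a4 and 2.10 for Slc1a5. It was 1.31 for Gpt2 and 1.06 for Slc16a1 in that fit, which is no independent support.

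Among the other genes named by rule in glomeruli, Got1 and Got2, the aspartate aminotransferases, rose by 0.44 and 0.41 on the log2 scale (edgeR adjusted p = 0.0166 and 0.00923), and Gls2, an enzyme of glutamine breakdown, by 1.79 (adjusted p = 0.00977). Ppargc1a rose by 3.69 (adjusted p = 0.00944), Sik1, a kinase that restrains CREB coactivators, by 0.93 (adjusted p = 0.0138), and Slc16a7 by 2.55 (adjusted p = 0.0291). G6pc3, the ubiquitous glucose-6-phosphatase, fell by 0.41 (adjusted p = 0.00909), Slc25a22 by 0.45 (adjusted p = 0.0116), Crtc2, a CREB coactivator, by 0.34 (adjusted p = 0.0115) and Bsg, the chaperone of lactate transporters, by 0.51 (adjusted p = 0.0231). Without 1 sample at a time, Slc16a7 kept its call in 1 of 6 fits, Bsg in 2 of 6, Got1, Crtc2 and Sik1 in 5 of 6, and Got2, Gls2, Ppargc1a, G6pc3 and Slc25a22 in 6 of 6. With diabetic sample 2 alone, picked on its values, the log2 difference was 1.83 for Ppargc1a, 0.32 for Slc16a7, 1.54 for Gls2 and 1.14 for Sik1. It was 0.33 for Got1, 0.39 for Got2, -0.34 for G6pc3, -0.49 for Slc25a22, -0.39 for Crtc2 and -0.58 for Bsg. With library totals and on both FPKM scales G6pc3, Slc25a22, Crtc2 and Bsg lost their calls (adjusted p = 0.0664 to 0.113), and their log2 fold changes were smaller, for G6pc3 -0.22 on all 3. Slc16a7 also lost its call on both FPKM scales and without the low-count filter (adjusted p = 0.0554 to 0.108), and Ppargc1a on log2(FPKM + 1) (adjusted p = 0.0718). Slc16a7 had 72.9, 8.42 and 39.1 CPM in diabetic and 7.82, 5.56 and 7.18 CPM in control glomeruli, with sample 2 just above the controls.

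The last comparison is of the diabetic effect in glomeruli with that in cortex, in 1 model of the 4 groups. Of the 9 members 6 had a higher effect in glomeruli, 1 a lower one and 2 did not pass edgeR's quasi-likelihood test, where 18.8% of 16298 genes were called higher and 16.3% lower. The difference was 5.14 ± 1.09 on the log2 scale for G6pc (adjusted p = 0.00325) and 4.31 ± 0.96 for Slc5a12 (adjusted p = 0.00435), the 2 members that fell in cortex. It was 3.49 ± 0.70 for Slc5a8 (adjusted p = 0.00236), 3.72 ± 0.98 for Fbp1 (adjusted p = 0.0109), 3.11 ± 1.01 for Pck1 (adjusted p = 0.0312) and 4.36 ± 1.31 for Slc38a3 (adjusted p = 0.0216), whose control glomerular counts are near 0. For Glud1 it was -0.46 ± 0.13 (adjusted p = 0.0173), and for Pcx and Slc37a4 the differences of 0.76 ± 0.48 and 0.17 ± 0.29 did not pass (adjusted p = 0.246 and 0.686).
Without diabetic glomerular samples 1+4 and 3, a single diabetic glomerular sample is left, sample 2, which was picked on its values. That fit is no independent support. In it the difference was 1.20 for Slc5a8, 0.96 for G6pc, 0.65 for Slc5a12 and 0.0017 for Fbp1. It was -1.07 for Pck1, -0.70 for Pcx, -0.15 for Slc38a3, -0.48 for Slc37a4 and -0.51 for Glud1. Each of the 9 members was below its value with all samples. When 1 sample or library was left out at a time, the call of Pck1 was lost without control glomerular sample 1, 2 or 3+4 or diabetic glomerular sample 1+4 or 3. It was also lost without control cortex library 3 or diabetic cortex library 3 or 4 (edgeR adjusted p = 0.0506 to 0.114 over these fits). The call of Slc38a3 was lost without control glomerular sample 1 or 2 or diabetic sample 1+4 (adjusted p = 0.0563 to 0.0612).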

How the data were processed

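RNA from isolated glomeruli and renal cortex had been extracted with a Qiagen RNeasy kit and made into libraries by SMARTER mRNA-Seq, per the protocols in the labels. For glomeruli the authors deposited whole read counts per gene symbol, and the deposited cortex table has whole numbers by Ensembl identifier that are, from the values, estimated counts made whole. The authors also deposited FPKM values, per length and library size, for both tissues. Builds GRCm38 and mm10 appear in the submitters' processing notes. For aligner, counter, annotation and strand: not given in the sources used here. Symbols were matched through GENCODE M21, RefSeq synonyms and identifiers, which joined the tables at 18787 genes.

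The tests used edgeR 4.0.16 in R 4.3.3: filterByExpr, TMM, glmQLFit with robust dispersion and glmQLFTest, Benjamini-Hochberg over all genes tested, threshold 0.05. The difference and the tissue contrast came from 1 model of the 4 groups. The alternatives were other scalings, no filter, DESeq2 1.42.0, limma 3.58.1 on log2(FPKM + 1) and log2(FPKM + 0.1), separate libraries, a replicate block and leaving out libraries. Summing the near-identical glomerular libraries departs from 4 against 4 libraries. The steps were tested on simulated data. The pathway genes named in cortex and glomeruli are up to 4 per list with the smallest adjusted p, and any other is marked where named; 2 genes of these lists are counted but not reported here. Members and lists were chosen with earlier results of these data known. FPKM ratios were compared by exact two-sided permutation tests. The limit at a count of 0 covers counting error only, because the reads carry no molecular identifiers.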

Additional observations from a re-analysis of the deposited data

Results flagged for a closer look

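The differences of 7 members between tissues were past the threshold: the diabetic effect in glomeruli minus that in cortex, on the log2 scale in edgeR's quasi-likelihood test, was 3.11 for Pck1, 5.14 for G6pc, 3.72 for Fbp1, -0.46 for Glud1, 4.36 for Slc38a3, 4.31 for Slc5a12 and 3.49 for Slc5a8, each past an adjusted p of 0.05. The summed proximal tubule markers were 1842, 264 and 902 CPM in diabetic glomerular samples 1+4, 2 and 3, against 182 to 229 CPM in control glomeruli, and their part in these differences was not tested. With sample 2, picked on its values, as the only diabetic glomerular sample, the difference was 1.20 for Slc5a8. The others of the 6 positive ones ran from -1.07 for Pck1 to 0.96 for G6pc in that fit, which is no independent support.

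Single libraries also stood apart from the other 3 of their group by Dixon's ratio, in 6 of 124 groups of 4 tested, where chance flags about 1 in 20. In diabetic cortex library 1, G6pc had 361 CPM (the others 293 to 303), Slc25a22 58.3 CPM (40.9 to 43.7) and Cebpa 27.9 CPM (35.8 to 36.3). Rhbg had 32.4 CPM in diabetic cortex library 2 (39.7 to 40.7), and Mdh1 1101 CPM in diabetic cortex library 3 (1173 to 1181). Sik1 had 116 CPM in control cortex library 4 (66.4 to 71.99). Glomerular groups of 3 samples were not tested in this way.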

How the results depend on the processing

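In cortex, Pck1, G6pc, Slc38a3 and Slc5a12 kept their direction and call in all 15 alternatives (log2 0.96 to 1.25, -1.04 to -0.71, 1.21 to 1.40 and -1.24 to -1.07), and leaving out libraries gave 2 to 3 members called higher and 2 lower. Same-numbered libraries did not deviate together (correlations -0.10 to 0.04 in cortex, -0.06 to 0.11 in glomeruli), so the numbers are not taken to pair the samples. With a replicate block in cortex 2 members were called higher and 2 lower, Glud1 had an adjusted p of 0.0866, and Pck2, Slc16a7, Glul, Slc7a8, Slc25a22 and Rhbg lost their calls too. In glomeruli the replicate block on 8 separate libraries gave 5 members called higher, as did separate libraries without it. The count of 4 called higher was 2 without the low-count filter, 0 on log2(FPKM + 1) and 1 on log2(FPKM + 0.1), and 0 to 7 with 1 sample left out. The counts of 2 and 7 include Slc38a3, which was not tested in the main fit. The cause of these shifts was not tested. Without diabetic glomerular libraries 1, 3 and 4 a single diabetic glomerular sample is left, picked on its values. The glomerular log2 fold change was then 0.010 for Pck1, 0.014 for G6pc, 0.053 for Fbp1 and -0.76 for Pcx. In the difference between tissues Pck1 was then at -1.07, Pcx at -0.70 and Slc38a3 at -0.15. Leaving out 1 library gave 4 to 7 higher and 1 lower in that difference. All 9 members were lower in control glomeruli than in control cortex in all 13 alternatives. Scaling by library totals moved the all-gene median in glomeruli to 0.20 (log2) and the share of higher among called genes to 72.6%, against 0.0096 and 51.6% with TMM, and in cortex the share to 63.5%, against 53.7%; in the difference between tissues it was 69.0%, against 53.6%. Depth limits Slc38a3 in control glomeruli, where 8 counts were read in all, and 3 against 3 samples limit the glomerular tests.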
